A study of Mus musculus with 6 samples.

Results

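Integrins are paired receptors, 1 alpha and 1 beta chain, that tie a cell to the matrix or to another cell. Inside the cell, talins and kindlins switch them on by binding the beta tail, the complex of Ilk, Lims1 (PINCH) and the parvins anchors them, and vinculin, filamins, alpha-actinins and zyxin tie them to actin. In liver, epithelial integrins are known from bile duct cells, the alpha8 and alphav chains from stellate cells, and the Itgb2 family from leukocytes such as Kupffer cells, neutrophils and lymphocytes. Several alphav pairs are also known to release active TGF-beta from its latent complex.

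The genes described here are 22 integrin chains and 18 focal adhesion adaptors, 40 symbols chosen by name, which matched 41 of the 34745 rows of the gene table because Itgam has 2 identifiers. Their RNA was counted in liver of mice fed an MCD diet, which lacks methionine and choline, for 6 weeks. The 3 libraries of the floxed control genotype Sox9f/f are replicates 5, 6 and 8, and the 3 labelled Sox9HKO are replicates 9, 10 and 12. Both groups had the same diet. The labels state neither what drives the deletion nor the strain, age or sex, and do not spell out HKO. Replicates are taken as separate samples, and the p-values set the difference between the groups against the spread between replicates.

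Library totals lay between 22826962 and 27286864 counts. Sox9, the targeted gene, went against its label if that label is read as a loss in the whole tissue. It stood at 5.80, 5.31 and 5.80 CPM (counts scaled to a common library size, with TMM scaling between libraries) in Sox9f/f and at 15.3, 18.1 and 22.7 in the libraries labelled Sox9HKO. Directions below are therefore between libraries by label. Hepatocyte markers were abundant but lower in the libraries labelled Sox9HKO for 8 of 9 (median log2 fold change -0.24). Of them 4 were lower without overlap, 2 at an unadjusted edgeR p under 0.05 and 1 (F2) was called by DESeq2. The shares over all genes tested were 14.3%, 10.1% and 1.97%. Albumin, 1 of the 4 markers without overlap, stood at 76710 ± 2690 CPM in Sox9f/f and 60380 ± 3074 in Sox9HKO. The part of this difference in the members' values was not tested. In bulk tissue, a change in the number of cells of a type and a change in RNA per cell cannot be told apart.

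None of the members passed the test between the labelled genotypes. Over all 14137 genes tested with edgeR's quasi-likelihood test, 0 were called in either direction at a 0.05 threshold on adjusted p, a background of 0.0% each. Of the 40 members, 38 passed the filter on low counts, and 0 of them passed the test in edgeR, in DESeq2 or in limma voom. DESeq2 called 2.31% of all genes higher and 1.97% lower. At an unadjusted edgeR p under 0.05 there were 5 members higher and 2 lower in Sox9HKO, while over all genes the shares were 9.74% higher and 10.1% lower. The groups did not overlap for 5 members that were higher and 1 that was lower, against 12.2% and 14.3% of all genes. The members' share of such genes was thus near the background for those higher and below it for those lower. The median log2 fold change of the 38 members was 0.08, beside 0.00 over all genes, with 25 positive and 13 negative. With scaling by library size alone, which shifts the median of all genes by 0.11, 32 were positive and the members' median was 0.19.

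**Figure D1:**
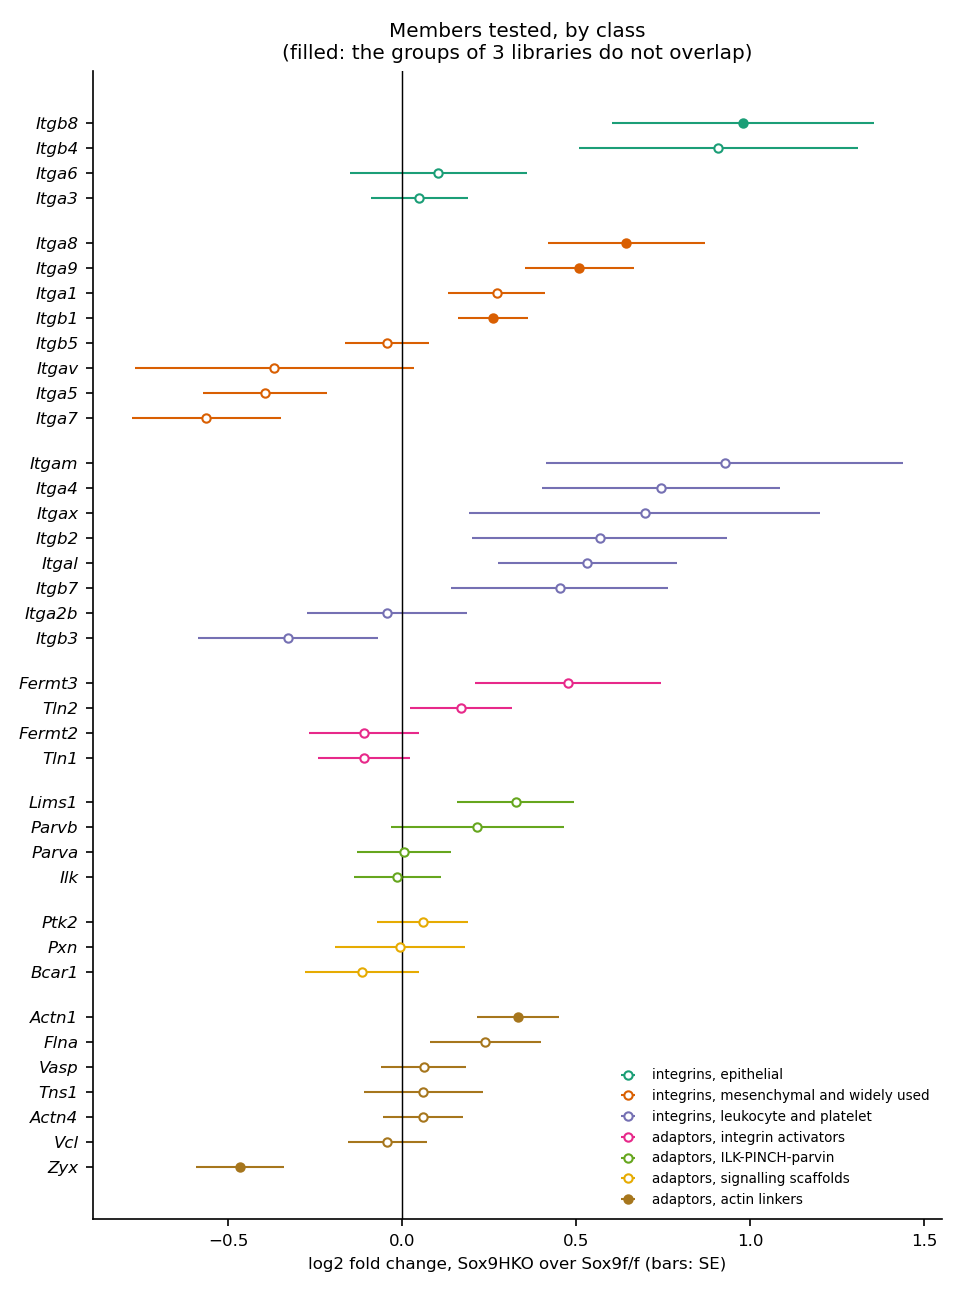
Log2 fold change of the 38 members tested, Sox9HKO over Sox9f/f, with standard errors, grouped by class. Filled points mark the 6 members whose groups of 3 libraries do not overlap: Itgb8, Itga8, Itga9, Itgb1 and Actn1 to the right of 0 and Zyx to its left.

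The 5 members higher without overlap were Itgb8, Itga8, Itga9, Itgb1 and Actn1, and the 1 lower was Zyx. Stretches before the start of 3 of them are shown. In these 3 the start in the RefSeq table lay within 50 bases of the gene's 5′ end in the deposited table. For Actn1 it lay 8 bases inside the deposited gene, so the last 8 bases shown belong to that gene. Each is the 100 bases before the RefSeq start on GRCm38.p6, written 5′ to 3′ on the gene's strand. Capitals mark matches to the motifs searched, a TEAD motif in Itgb1 and 2 adjoining GC boxes, on the opposite strand, in Actn1. The stretches are chr2:12301945-12302044 (minus strand) for Itga8, chr8:128685554-128685653 (plus strand) for Itgb1 and chr12:80260364-80260463 (minus strand) for Actn1.
Itga8: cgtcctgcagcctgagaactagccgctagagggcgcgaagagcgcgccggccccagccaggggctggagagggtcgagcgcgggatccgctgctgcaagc
Itgb1: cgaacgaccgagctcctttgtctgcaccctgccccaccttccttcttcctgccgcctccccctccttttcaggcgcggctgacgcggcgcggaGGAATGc
Actn1: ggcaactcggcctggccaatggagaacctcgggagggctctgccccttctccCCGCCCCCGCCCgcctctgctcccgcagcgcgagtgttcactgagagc

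All 3 stretches are rich in G and C, at 72.0%, 67.0% and 71.0%. Motifs were searched on both strands of the 300 bases around each start, in 36 promoters of 30 members. GC boxes (GGGCGG) were in 58.3% of the members' promoters and 35.7% of all 32851 in the table. A SOX core (ATTGTT) was in 11.1% of the members' promoters and 10.7% of all, with 1 match in that of Itga8 before the stretch shown. A TEAD motif (GGAATG) was in 11.1% against 14.7%, an AP-1 motif (TGANTCA) in 13.9% against 7.81%, an E-box (CACCTG) in 22.2% against 20.2%, a PU.1 motif (GAGGAAG) in 16.7% against 13.6%, and the CArG box in 8.33% against 1.63%. The CArG box, the motif of serum response factor, was in only 3 of the 36 promoters, those of Fermt2, Itgb6 and Vcl. The differences between these shares were not tested. Bases of AP-1 motifs may overlap other motifs searched, and a match is only a match of letters.

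Per gene length, the adhesion RNA of these livers was led by a few chains. In FPKM, which divides counts by gene length and library total, Actn4 stood highest at a mean of 38.7 over all 6 libraries, followed by Itgb5 at 37.3 and Itgb1 at 36.9. The ranges over libraries of these 3 overlapped. Fermt2 (24.1), Bcar1 (18.2), Tln1 (17.4), Vcl (14.5), Vasp (12.7) and Itga5 (12.3) came next. Itgb6 (0.0169), Itga2 (0.0617), Itgb8 (0.0939) and Itgb4 (0.299) were the lowest, all of them epithelial chains.

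Itgb5 and Itgb1 together carried most of the beta chain RNA. Itgb5, which pairs with alphav and binds vitronectin, took 45.5% ± 1.68 of the summed FPKM of the 8 beta chains in Sox9f/f and 39.5% ± 1.10 in Sox9HKO (SD, n = 3), with 43.5% to 46.5% in the first group and 38.4% to 40.6% in the second. Itgb1 took 40.3% ± 2.74 and 43.4% ± 3.64, and those ranges overlapped. Itgav, the chain that Itgb5 needs, was at a mean of only 1.04 FPKM. Of the 10 alpha partners of Itgb1 among the members, Itga5 held the largest share of their summed FPKM, at 41.1% ± 4.87 in Sox9f/f and 32.5% ± 4.40 in Sox9HKO. The share of Itga9 was 12.5% ± 3.01 and 18.2% ± 2.90. Both shares overlapped between the groups, and shares of a sum move with its other parts.

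**Figure D2:**
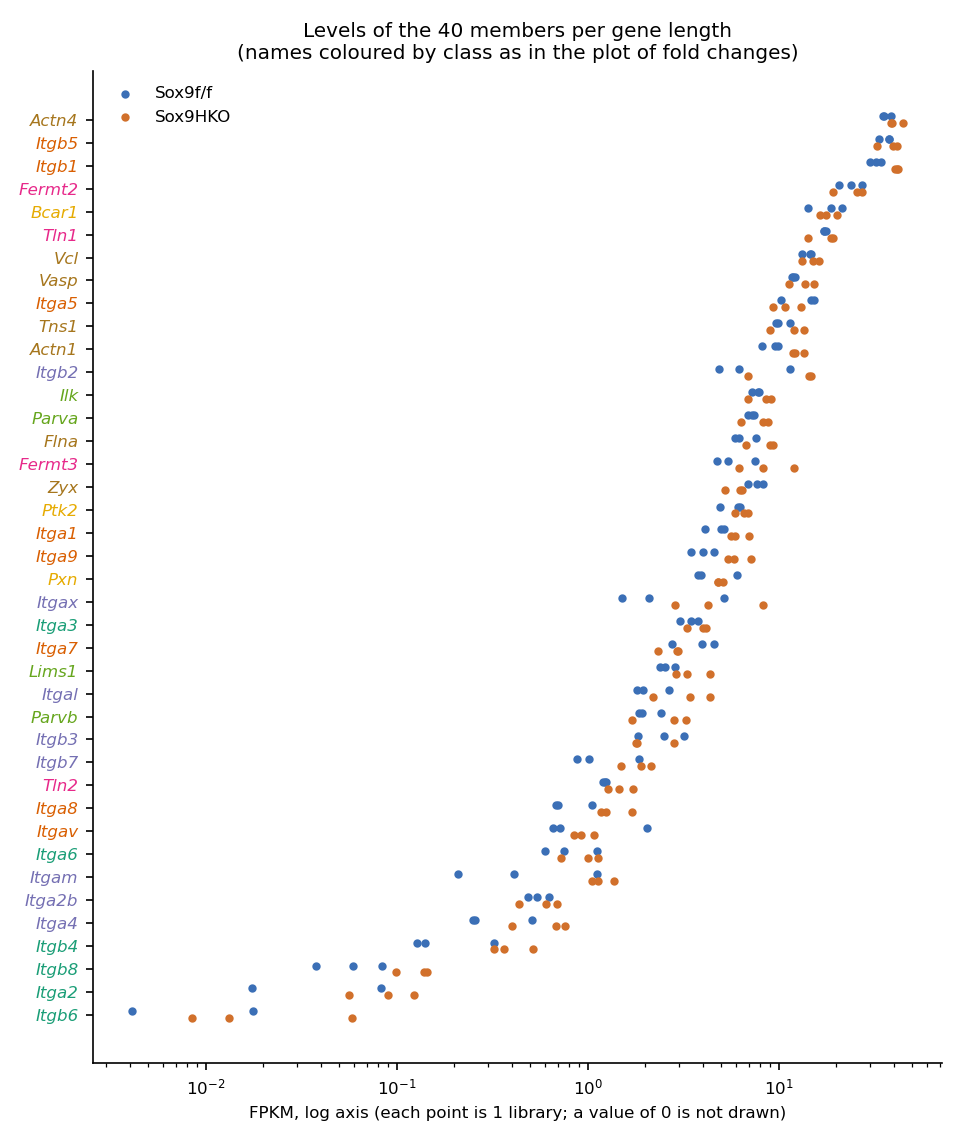
FPKM of the 40 members on a log axis, each point 1 library, ordered by the mean over all 6 libraries. Actn4, Itgb5 and Itgb1 lie at the top and the epithelial chains Itgb4, Itgb8, Itga2 and Itgb6 at the bottom; the libraries of both groups mix for most members.

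Among the mesenchymal and widely used integrins, partners of the same beta chain lay on opposite sides of 0. Of the 8 genes, 4 had positive and 4 negative log2 fold changes, with a median of 0.11. It turned to -0.03 once trends on transcript length and GC content were removed, a run in which the median of all genes was -0.05. In the edgeR test with all libraries there were 3 higher and 1 lower at an unadjusted p under 0.05, beside 9.74% and 10.1% of all genes. The 11 stellate cell and myofibroblast markers, measured for comparison, had a median of 0.64, with 10 positive. DESeq2 called 5 of them higher, beside 2.31% of all genes, and edgeR 0. Summed, the 11 markers lay between 494 and 628 CPM in Sox9f/f and between 608 and 819 in Sox9HKO, and none was at 0. Of 5 smooth muscle markers 3 were tested, 1 positive and 2 negative, with a median of -0.27 and overlapping groups. Summed, the 5 lay between 15.7 and 24.5 CPM in Sox9f/f and between 19.7 and 28.0 in Sox9HKO. Among them Cnn1, too low to be tested, had 7, 12 and 5 counts in Sox9f/f and 1, 2 and 1 in Sox9HKO. The part of either marker list in the integrin values was not tested.

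Itgb1, the common partner of most alpha chains, stood at 189.8, 179 and 199 CPM in Sox9f/f replicates 5, 6 and 8 and at 225, 230.6 and 225 in Sox9HKO replicates 9, 10 and 12. All 3 libraries labelled Sox9HKO were above the others and close to each other. Its log2 fold change was 0.26 ± 0.10 (SE), with an edgeR adjusted p of 0.219, and 0.14 to 0.37 over the alternatives. Itgb1 (ENSMUSG00000025809) spans 128685654 to 128733200 on chromosome 8, plus strand, in GRCm38.

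Itga8, a chain of stellate and smooth muscle cells that binds nephronectin and other RGD ligands, had 10.7, 6.97 and 6.98 CPM in Sox9f/f and 15.6, 11.8 and 11.1 in Sox9HKO. The lowest Sox9HKO library was only just above Sox9f/f replicate 5. The log2 fold change of Itga8 was 0.64 ± 0.23 (edgeR adjusted p = 0.190). Itga9, which binds tenascin-C and osteopontin, stood at 40.4, 31.0 and 34.7 CPM against 43.0, 59.4 and 48.4. Its lowest Sox9HKO library likewise lay just above Sox9f/f replicate 5, and the log2 fold change was 0.51 ± 0.16 (edgeR adjusted p = 0.166). Itga8 lies on chromosome 2 from 12106632 to 12301922 (minus strand), and Itga9 on chromosome 9 from 118606690 to 118901003 (plus strand). Neither sign turned in any alternative run. Itga1, a collagen receptor chain, had 29.5 ± 3.22 CPM against 35.6 ± 4.57, with a log2 fold change of 0.27 ± 0.14 and overlapping groups. The sign of Itga1 turned to -0.07 once length and GC trends were removed, where the median of all genes was -0.05.

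Itga5, the fibronectin receptor chain and the most abundant alpha chain here, and Itga7, a laminin receptor chain best known from muscle, lay the other way. Itga5 stood at 47.2, 70.4 and 65.9 CPM in Sox9f/f and 53.6, 46.3 and 39.8 in Sox9HKO. Sox9f/f replicate 5 fell among the Sox9HKO libraries, so the groups overlapped (-0.39 ± 0.18, edgeR adjusted p = 0.268). Itga7 stood at 11.5, 19.2 and 16.3 CPM against 8.81, 11.6 and 11.4. Replicate 5 was again among the Sox9HKO values (-0.56 ± 0.21, edgeR adjusted p = 0.210). Exons of Itga7 overlap those of Mettl7b on the other strand, a gene at 1517 ± 78.9 CPM in Sox9f/f and 1202 ± 303 in Sox9HKO. No source used here states whether strand entered the counting; without strand, reads of this pair cannot be told apart.

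Itgav, the shared alpha chain of the vitronectin and TGF-beta activating receptors, was set by a single library. It stood at 9.50, 10.4 and 28.8 CPM in Sox9f/f and at 14.0, 12.3 and 11.4 in Sox9HKO. Sox9f/f replicate 8 was far above the other 5 libraries, and replicates 5 and 6 were below all 3 of Sox9HKO. The log2 fold change was -0.37 ± 0.40 with all libraries and 0.34 without Sox9f/f replicate 8 (edgeR adjusted p of 0.626 and 0.453). Itgb5 had 174 ± 10.02 CPM against 169 ± 18.4 (-0.04 ± 0.12), with sign changes among the alternatives.

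**Figure D3:**
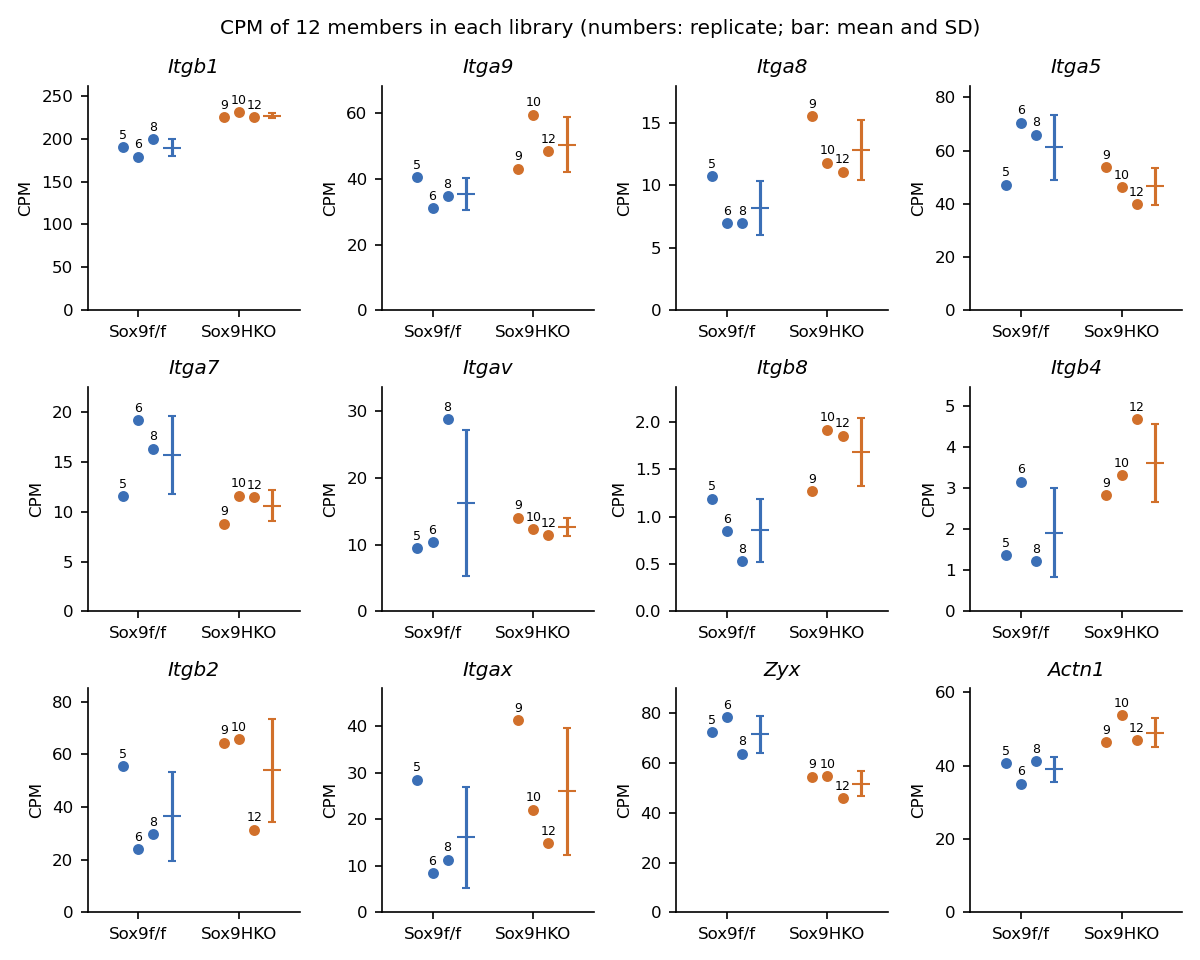
CPM of 12 members in each library, with replicate numbers, and the mean and SD of each group beside the points; axes start at 0. Itgb1, Itga9, Itga8, Itgb8, Actn1 and Zyx separate the groups, Itgav is high in Sox9f/f replicate 8 alone, and Itgb2 and Itgax are high in Sox9f/f replicate 5 as well as in Sox9HKO replicate 9.

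Of the epithelial integrins, Itga2, Itgb6, Itgb8 and Itgb4 were scarce in these livers. Itga2, a collagen receptor chain, had 0 to 8 counts in Sox9f/f and 6 to 14 in Sox9HKO, and Itgb6, a TGF-beta activating chain of injured epithelium, 0 to 4 and 2 to 14. The filter left out both, and their groups overlapped. The other 4 had positive log2 fold changes, with 1 at an unadjusted edgeR p under 0.05, beside 9.74% of all genes higher at that p.

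Itgb8, which pairs with alphav and presents latent TGF-beta, had 26, 22 and 13 counts in Sox9f/f and 34, 52 and 51 in Sox9HKO, or 1.19, 0.847 and 0.528 CPM against 1.27, 1.92 and 1.85. Sox9HKO replicate 9 was only just above Sox9f/f replicate 5. The log2 fold change of Itgb8 was 0.98 ± 0.38 (edgeR adjusted p = 0.214), and on log2(FPKM + 0.5), which understates low genes, 0.16. Itgb4, the laminin receptor chain of basal epithelial surfaces, stood at 1.37, 3.16 and 1.22 CPM against 2.84, 3.32 and 4.68. Sox9f/f replicate 6 fell among the Sox9HKO libraries (0.91 ± 0.40, edgeR adjusted p = 0.258). The log2 fold change of its sole partner Itga6 was nearer 0, at 7.62, 9.70 and 14.1 CPM against 13.0, 8.73 and 12.1 (0.10 ± 0.26), and the sign of Itga6 turned without Sox9f/f replicate 5 or without Sox9HKO replicate 9. Itga3, another laminin receptor chain and the most abundant of the class, had 24.1 ± 2.43 CPM against 24.9 ± 2.99 (0.05 ± 0.14), with sign changes among the alternatives. Per length, Itga6 (0.887 FPKM) lay above Itgb4 (0.299), and it also pairs with Itgb1.

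Of 11 cholangiocyte markers 9 were tested, 8 of them positive, with a median of 0.91. In edgeR 0 passed, 4 were higher at an unadjusted p under 0.05, DESeq2 called 3 higher, and the groups overlapped for 5 of the 9. The shares of all genes higher were 9.74% at that p, 2.31% in DESeq2 and 12.2% without overlap. The 11 markers summed to 105 to 121 CPM in Sox9f/f and 134 to 145 in Sox9HKO. Most of that sum was Sorbs2, at 82.7 ± 2.71 and 79.9 ± 16.9 CPM, the 1 marker with a negative log2 fold change (-0.05), while Cftr, at no more than 29 counts in any library, was too low to be tested. Epcam had a mean of 3.47 CPM against 8.44. Their part in the values of Itgb4 and Itgb8 was not tested.

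Of the 8 leukocyte and platelet chains, 6 had positive log2 fold changes and the class median was 0.55, yet 0 had an unadjusted edgeR p under 0.05 and the groups overlapped for all 8. Itgb2, the common beta chain of the leukocyte family, stood at 55.6, 23.9 and 29.7 CPM in Sox9f/f and 64.4, 65.8 and 31.4 in Sox9HKO. Sox9f/f replicate 5 was near the 2 highest Sox9HKO libraries, and Sox9HKO replicate 12 was near the 2 lowest of Sox9f/f (0.57 ± 0.37, edgeR adjusted p = 0.413).

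Itgal and Itgax, alpha partners of Itgb2, were likewise high in Sox9f/f replicate 5 and lowest of their group in Sox9HKO replicate 12. Itgal (LFA-1 chain of lymphocytes and other leukocytes) had 26.1, 17.98 and 18.8 CPM against 30.6, 40.1 and 20.1 (0.53 ± 0.26, edgeR adjusted p = 0.294). Itgax (CD11c) had 28.5, 8.43 and 11.4 CPM against 41.2, 22.1 and 14.8. In both, Sox9f/f replicate 5 was above Sox9HKO replicate 12. Itgam (CD11b of monocytes and neutrophils) had 8.40, 3.12 and 1.54 CPM against 9.29, 7.44 and 7.95 under its main identifier (0.93 ± 0.51, edgeR adjusted p = 0.347). A second identifier, which shares exons with the first, held 24 counts in Sox9f/f replicate 8 and 36 in Sox9HKO replicate 9 but at most 2 elsewhere. With both summed, Itgam stood at 8.49, 3.12 and 2.52 CPM against 10.6, 7.48 and 7.95 (0.89 ± 0.43, edgeR adjusted p = 0.295).

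The lymphocyte homing chains Itga4 and Itgb7 were low. Itga4 (the chain that binds Vcam1) had 8.26, 4.23 and 4.02 CPM against 9.96, 11.5 and 6.10 (0.74 ± 0.34, edgeR adjusted p = 0.273), again with Sox9f/f replicate 5 above Sox9HKO replicate 12. Itgb7 had 3.63 ± 1.53 CPM against 4.95 ± 0.877 (0.45 ± 0.31). The platelet chain Itga2b, at 4.66 ± 0.620 against 4.51 ± 1.01, stood at -0.05 ± 0.23, with sign changes among the alternatives. Itgb3, its partner and a chain of macrophages and endothelium too, had 22.5 ± 6.28 CPM against 17.9 ± 5.10 (-0.33 ± 0.26). Platelet markers other than Pf4 were too scarce to be tested.

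Without Sox9f/f replicate 5, the class looked different. The groups then did not overlap for 6 of the 8, all higher in Sox9HKO, against 20.3% of all genes higher and 20.6% lower in the same 5 libraries, and the class median was 0.93. Leaving out any other Sox9f/f library gave 0 of 8. Without Sox9HKO replicate 12 the groups did not overlap for 3 that were higher and 1 that was lower, with 20.8% and 22.4% over all genes. Over the 38 members, the count of those higher without overlap went from 5 to 15 when either of these 2 libraries was left out, with 3 and 2 lower. Without one of the other 4 it lay between 5 and 8, with 1 or 2 lower. Over all genes those shares were 16.4% higher and 18.7% lower without Sox9f/f replicate 6, and 15.9% and 17.9% without replicate 8. They were 17.6% and 19.0% without Sox9HKO replicate 9, and 15.5% and 17.3% without replicate 10. Of the 15 members higher without Sox9f/f replicate 5, 6 were leukocyte and platelet chains. Of the 15 without Sox9HKO replicate 12, only 3 were, while 4 belonged to the Ilk complex and 3 were actin linkers.

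All 12 macrophage markers had positive log2 fold changes (median 0.48), with 0 at an unadjusted edgeR p under 0.05 and overlapping groups for 11. As the difference in mean log2 CPM from the list's mean over the 6 libraries, they stood at 0.76 in Sox9HKO replicate 10 but at -0.04 in replicate 9. The leukocyte and platelet integrins stood at 0.42 in replicate 9 by the same measure. The sum of the macrophage markers ranged over 822 to 1140 CPM in Sox9f/f and over 1037 to 1754 in Sox9HKO. Sox9f/f replicate 5, at 1140, was above Sox9HKO replicate 12, at 1037. The 8 neutrophil markers summed to 7.66 to 14.1 CPM against 14.8 to 23.1, with Ly6g and Camp at 3 counts or fewer in every library. The 11 T, NK and B cell markers summed to 3.81 to 7.40 against 6.39 to 9.07, and of these the B cell marker Ms4a1 was too low to be tested. Their part in the integrin values was not tested.

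**Figure D4:**
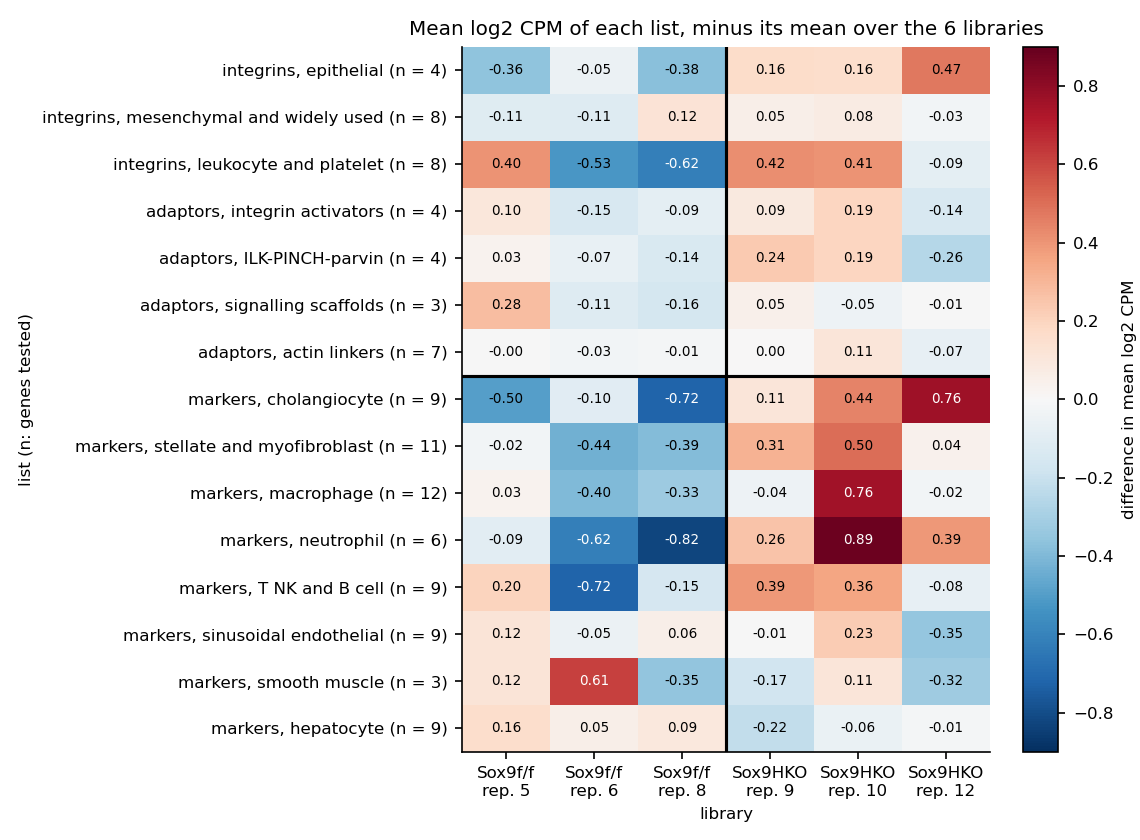
Mean log2 CPM of each class of members and each marker list in the 6 libraries, as the difference from the mean of that list over the libraries. The leukocyte and platelet integrins stand at 0.40 in Sox9f/f replicate 5, beside 0.42 and 0.41 in Sox9HKO replicates 9 and 10 and -0.09 in replicate 12; the epithelial integrins and the cholangiocyte markers are highest in Sox9HKO replicate 12.

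The median log2 fold change of the 18 adaptors was 0.06, with 11 positive, against 0.36 for the 20 integrins tested, with 14 positive. The adaptor median turned to -0.01 once length and GC trends were removed, a run that moved the median of all genes from 0.00 to -0.05. Without Sox9f/f replicate 5 the median of the integrins was 0.62. The difference between the medians was not tested. With library size scaling 16 of the 18 adaptors were positive.

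Zyx and Actn1 were the adaptors whose groups did not overlap. Zyx, zyxin of stretched focal adhesions and stress fibres, stood at 72.2, 78.3 and 63.6 CPM in Sox9f/f and 54.4, 54.7 and 45.8 in Sox9HKO. All 3 libraries labelled Sox9HKO lay below all 3 of Sox9f/f. It had the smallest unadjusted p of the 38 members tested (0.00614), with a log2 fold change of -0.47 ± 0.13, -0.55 to -0.33 over the alternatives. The edgeR adjusted p of Zyx was 0.151 and that of DESeq2 0.0636. Zyx lies on chromosome 6 from 42349630 to 42360213 (plus strand), and its exons overlap those of Epha1 on the other strand, which had 78.9 ± 12.7 CPM against 66.3 ± 7.83.

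Actn1, the alpha-actinin of stress fibres and of many non-epithelial cells, had 40.7, 35.0 and 41.1 CPM against 46.4, 53.6 and 47.0. All Sox9HKO libraries were above those of Sox9f/f (0.33 ± 0.12, edgeR adjusted p = 0.195). Actn1 lies on chromosome 12 from 80167542 to 80260371 (minus strand). Its paralog Actn4 had 256 ± 10.6 CPM against 266 ± 26.3 (0.06 ± 0.12). Flna, filamin A, which crosslinks actin and binds beta tails, had 125, 103 and 95.1 CPM against 139, 139 and 104 (0.24 ± 0.16, edgeR adjusted p = 0.428), and Sox9HKO replicate 12 was among the Sox9f/f libraries. The remaining actin linkers were close to 0, with Vcl (vinculin) at -0.04 ± 0.11, Tns1 (tensin) at 0.06 ± 0.17 and Vasp (actin polymerisation) at 0.06 ± 0.12; the signs of Vcl, Tns1, Vasp and Actn4 turned in some alternatives.

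The groups overlapped for all 4 activators, the kindlins and talins, and 0 had an unadjusted edgeR p under 0.05. Fermt3, the kindlin of blood cells, had 20.2, 12.9 and 14.3 CPM against 20.2, 30.2 and 15.6. Sox9f/f replicate 5 again lay among the Sox9HKO libraries (0.48 ± 0.27, edgeR adjusted p = 0.352). Fermt2, the kindlin of most other cells, had 107 ± 14.4 CPM against 99.1 ± 16.2 (-0.11 ± 0.16). Tln1, the main talin, had 210.3, 207 and 201 CPM against 206, 208 and 159, and Sox9HKO replicate 12 alone was low (-0.11 ± 0.13, edgeR adjusted p = 0.661). Tln2 had 15.7, 16.5 and 15.8 CPM against 17.3, 21.1 and 15.6 (0.17 ± 0.15, edgeR adjusted p = 0.540). The signs of Tln1, Tln2 and Fermt2 turned in some alternatives.

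In the Ilk complex, Lims1, the PINCH adaptor, had 18.5, 15.5 and 16.1 CPM against 25.4, 19.9 and 17.4, with Sox9f/f replicate 5 above Sox9HKO replicate 12 (0.33 ± 0.17, edgeR adjusted p = 0.320). Parvb had 12.05, 9.62 and 9.09 CPM against 12.7, 15.1 and 7.92 (0.22 ± 0.25, edgeR adjusted p = 0.647). Sox9HKO replicate 12 was the lowest of all 6 libraries. Ilk, the pseudokinase at the centre of the complex, had 63.8, 65.6 and 58.6 CPM against 67.3, 65.8 and 53.0 (-0.01 ± 0.13, edgeR adjusted p = 0.958). Parva, the parvin of most tissues, stood at 0.00 ± 0.13. The signs of Ilk and Parva turned in some alternatives. Without Sox9HKO replicate 12 all 4 genes of the complex were higher without overlap, against 20.8% of all genes. Without Sox9f/f replicate 5 that held for 1 of the 4, against 20.3%.

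The signalling scaffolds were close to 0. Ptk2, or focal adhesion kinase, had 33.1, 26.4 and 32.0 CPM against 31.5, 29.4 and 34.4 (0.06 ± 0.13, edgeR adjusted p = 0.827). Pxn, paxillin, had 89.1, 55.8 and 56.2 CPM against 67.5, 66.3 and 66.2 (-0.01 ± 0.19, edgeR adjusted p = 0.987). Sox9f/f replicate 5 was the highest of all 6 for paxillin, and without it the log2 fold change was 0.26. Bcar1, the p130Cas docking protein, had 70.5, 62.8 and 46.5 CPM against 60.5, 54.5 and 50.8 (-0.12 ± 0.16, edgeR adjusted p = 0.714). The signs of Ptk2, Pxn and Bcar1 turned in some alternatives.

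Other genes of the adhesion machinery were taken from a list of 47, of which 45 were tested. In edgeR 0 passed, with 7 higher and 2 lower at an unadjusted p under 0.05, DESeq2 called 3 higher and 0 lower, and the median was 0.03. The shares over all genes were 9.74% higher and 10.1% lower at that p, and 2.31% and 1.97% in DESeq2. The 3 that DESeq2 called were Rsu1, a partner of the PINCH adaptor, Lpp, a relative of zyxin, and Apbb1ip (RIAM), which brings talin to integrins in leukocytes. Rsu1 had 16.0, 16.7 and 13.7 CPM against 23.2, 27.0 and 21.4 (0.63 ± 0.14, DESeq2 adjusted p = 0.0185, edgeR 0.144). Lpp had 53.5, 44.6 and 62.1 CPM against 79.2, 75.6 and 95.9 (0.65 ± 0.15, DESeq2 adjusted p = 0.0201, edgeR 0.144). Apbb1ip had 6.16, 5.50 and 4.95 CPM against 9.78, 12.2 and 7.74 (0.84 ± 0.21, DESeq2 adjusted p = 0.0212, edgeR 0.144). For all 3 genes every Sox9HKO library was above every Sox9f/f library. Over the 45 tested, the groups did not overlap for 6 that were higher and 6 that were lower, against 12.2% and 14.3% of all genes. Lower by smallest p were Pdlim7 (-0.40 ± 0.14), Cav1, the caveola coat protein (-0.64 ± 0.26), and Sharpin, an integrin inhibitor (-0.24 ± 0.11). For each of these, every Sox9HKO library was below every Sox9f/f library.

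Of 21 integrin ligands 20 were tested, with a median of 0.21, 13 positive and 0 passing in edgeR. At an unadjusted edgeR p under 0.05 there were 6 higher and 1 lower, beside 9.74% and 10.1% of all genes. DESeq2 called 3 higher and 0 lower, beside 2.31% and 1.97%. Spp1 (osteopontin, a ligand of Itga9 and of alphav pairs) had 51.2, 50.6 and 38.2 CPM against 91.1, 118.5 and 173 (1.45 ± 0.24, edgeR adjusted p = 0.139). Col1a1, a collagen I chain that DESeq2 also called, had 32.3, 16.4 and 20.7 CPM against 64.3, 79.4 and 40.2 (1.41 ± 0.31, edgeR adjusted p = 0.140). In both, every Sox9HKO library lay above every Sox9f/f library. Vtn, vitronectin, a plasma ligand made by hepatocytes, was lower by smallest p at 2356, 2344 and 2203 CPM against 1780, 1899 and 1679 (-0.37 ± 0.12, edgeR adjusted p = 0.172, DESeq2 0.0540), without overlap. Npnt, the ligand of the Itga8 pair, was under 2 CPM in every library (-0.74 ± 0.54), and Fgg, a fibrinogen chain, stood at -0.04 ± 0.13.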

How the data were processed

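Per the labels' protocols, messenger RNA was separated from total liver RNA before library construction. The deposited table gives whole-number counts per gene and, per the file headers, FPKM values made by the authors; FPKM over count share was constant within a gene to 0.00111% over 10962 genes, so FPKM carries library-size scaling only. Per the submitters' processing notes, the tools were HISAT2 2.0.4 and StringTie 1.3.0; mm10 and GRCm38.p4 appear there as builds, with no role stated. Counts were tested with edgeR 4.0.16 (R 4.3.3) by its quasi-likelihood test, in the robust form, after filterByExpr left 14137 genes and TMM had set the scaling, with Benjamini-Hochberg adjusted p over all of them. Standard errors were derived from fold change and test statistic. DESeq2 1.42.0, which gave no adjusted p for 558 genes, and limma 3.58.1 served as alternatives. The fits were tested on simulated data. Every pair of libraries differed by far more than sampling noise (chi-square over degrees of freedom of 32.7 or more), so none was a repeat.

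Members, lists and motifs were chosen with earlier results of these data known. Values in every library are given for the 3 members of smallest p in each of 7 classes and for Itgb1, Itgb2, Itgav, Itga6, Itgb4, Tln1 and Ptk2; Itga5 and Itgax were added after their values were seen. Of the other adhesion genes and the ligands the 3 of smallest p per direction are named, except 1 ligand, which is not reported here. GENCODE M21 on GRCm38 gave length, GC content and exon overlaps. In it 12 members share exons with a gene on the other strand and 2 (Itga1 and Itgam) on the same strand, so their counts may be split or shared. Promoter sequences are from RefSeq on GRCm38.p6, with matches for 30 of 40 symbols. Figures were drawn with matplotlib 3.10.9.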

Additional observations from a re-analysis of the deposited data

How the results depend on the processing

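The count of members called was 0 under every alternative run, including the summed Itgam identifiers, chosen after seeing the data. With 0 calls among all genes in most of these fits, that count says nothing about stability. Over all genes the count was 605 with DESeq2 (326 higher, 279 lower) and 10 without the filter on low counts, and between 0 and 3 with 1 library left out; it was 0 under the other alternatives. The median of the members lay between 0.03 (length and GC trends removed) and 0.19 (library size scaling), while that of all genes was -0.05 and 0.11 in those runs. Signs turned for 8 of the members whose values are given in every library, most of them near 0 in log2 fold change. With 1 library left out, Itgav ranged from -0.63 to 0.34 (without Sox9f/f replicates 5 and 8), Itga6 from -0.074 to 0.38, Bcar1 from -0.27 to 0.019, Tln1 from -0.17 to 0.0015, Ptk2 from -0.022 to 0.13, Ilk from -0.077 to 0.081 and Pxn from -0.12 to 0.26. With length and GC trends removed, Ptk2 stood at -0.081, Tln2 at -0.053, Ilk at 0.029 and Pxn at 0.028, beside a median of -0.047 over all genes. With library size scaling Tln1 stood at 0.0006, Ilk at 0.097 and Pxn at 0.103, and with upper quartile scaling Ilk at 0.035 and Pxn at 0.043. On log2(FPKM + 0.5) and log2(FPKM + 0.1) Bcar1 stood at 0.0090 and 0.0095, Ilk at 0.083 and 0.087, and Pxn at 0.121 and 0.134. With voom Ilk stood at 0.050 and Pxn at 0.076. Pxn also stood at 0.0004 with DESeq2, 0.0005 with RLE scaling and 0.0031 with a filter of 1 CPM in 3 libraries. The cause was not tested in any of these. Depth limits Itga2, Itgb6, Itgb8 and Itgb4 most, which had few counts. No paired analysis was possible because the groups share no replicate numbers.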
